A study of Ovis aries with 9 samples.

Results

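Among the small RNAs of ram sperm, 281038 distinct sequences of 25 to 31 nt began with thymine (T, uridine in the RNA), matched the sheep genome and carried no RNA annotation, out of 3309646 distinct sequences in all. They were chosen by these features alone, which are the size and first base of piRNAs, and no read number entered the choice. The sperm came from wild-type F1 sheep (Ovis aries) whose labels name the feeding as standard (CON), over feeding (OVER) or restricted (RES), and the series title places that feeding in the mothers' gestation. All 3 groups share the same handling: somatic cells were lysed with detergent and small RNA was size-selected before library preparation. No label states the rams' age or breed, or how many rams stand behind a sample. Each group has 3 samples in the labels, 9 in all, but within a group the 3 tables list identical sequences and identical read counts, so each group is 1 library here. No difference between groups therefore has a replicate check, and the exact 95% intervals below cover counting error only.

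PIWI-interacting RNAs (piRNAs) are germ line small RNAs, longer than microRNAs, that guide PIWI proteins to transposon and other transcripts. In the mammalian testis most of them are cut during meiosis from long single-stranded transcripts of genomic clusters. The cut that makes the 5′ end favours a position just before a uridine, and the 3′ end is then trimmed back to the PIWI protein and methylated. When a PIWI protein cuts a target, the new piRNA tends to carry adenine at base 10. The reads described here have the length and first base of such RNAs, but no PIWI protein was pulled down and no genome was at hand to place them in clusters, so they are called piRNA-like.

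The 10 most abundant of these RNAs in CON are shown because their levels are compared one by one below. Members with the same first 18 bases were summed as a 5′ family, and each family is given by its most read sequence, written as DNA from 5′ to 3′. The capital at the start marks the T that the choice required, and a capital at position 5 marks an adenine there, the base most enriched inside these reads.
P1: Tacacagaaaatgtgggctcttcctgaa
P2: Tatttagatgactgtgaggttctccctgc
P3: TtctAccgtgctttgacgatcctctgctg
P4: Tgtgctagacgtgatctgtaatccgaacc
P5: TttgAcatgtgtgtgaaccgggctcagc
P6: TtggActtttaatctgttggcaacaggga
P7: TgacAtgtgtgtgaaccgggctcagc
P8: Tagactgtatggagcttctctgattcctcc
P9: Tagacgtgatctgtaatccgaaccgcagg
P10: TgagAattatcagagaattctggacagtg
None of the 10 shared 16 or more bases in a row with a sequence that the authors annotated. P9 began 5 nt downstream of P4 and shared 24 bases with it, and P7 began 2 nt downstream of P5 and shared 26 bases with it. P5 and P7 thus ended at the same base, while P4 and P9 did not.

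The piRNA-like reads were abundant in CON and RES and scarcer in OVER. They made up 86268 RPM (reads per 1000000 reads of the library) in CON (95% interval 86094 to 86443), 76937 RPM in RES (76793 to 77081) and 36758 RPM in OVER (36630 to 36887). These levels rest on 861295, 1012493 and 304650 reads of libraries with 9983895, 13160116 and 8287937 reads. OVER was 2.35-fold lower than CON (log2 ratio -1.23, interval -1.24 to -1.22) and 2.09-fold lower than RES, and RES was 1.12-fold lower than CON. The whole size range moved with this: reads of 25 to 31 nt of any kind were 51.9% of the CON library, 45.1% of RES and 23.8% of OVER. Within that size range the piRNA-like reads held 16.6% of CON, 17.1% of RES and 15.5% of OVER reads. Unannotated genome-matching reads of the same lengths that began with another base were at 38172 RPM in CON, 24446 RPM in RES and 10677 RPM in OVER, and so were 3.58-fold lower in OVER than in CON. In bulk samples fewer cells of a kind and less RNA per cell cannot be told apart.

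Thymine was the leading first base in this size range, by a larger share than in the shorter and longer windows of unannotated reads. Of the unannotated genome-matching reads of 25 to 31 nt, 69.3% began with T in CON (interval 69.24 to 69.41%), 75.9% in RES (75.81 to 75.96%) and 77.5% in OVER (77.36 to 77.62%). Counting each distinct sequence once, the shares were 48.2%, 52.9% and 58.6% in the same order. In shorter unannotated reads of 18 to 24 nt T opened 33.5% of CON, 34.8% of RES and 37.0% of OVER reads, and in longer ones of 32 to 42 nt 36.1%, 43.1% and 45.4%. Annotated reads of 25 to 31 nt began with T in 35.4% of cases in CON, 23.6% in RES and 11.9% in OVER. Unannotated reads of that size without a genome match lay between, at 55.1%, 51.4% and 44.6%. Among the single lengths from 25 to 31 nt the share was highest at 29 nt, at 82.2% in CON and 86.7% in both RES and OVER. Outside that range 37 nt also stood out, with T at 71.6% in CON, 78.6% in RES and 93.1% in OVER.

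**Figure D1:**
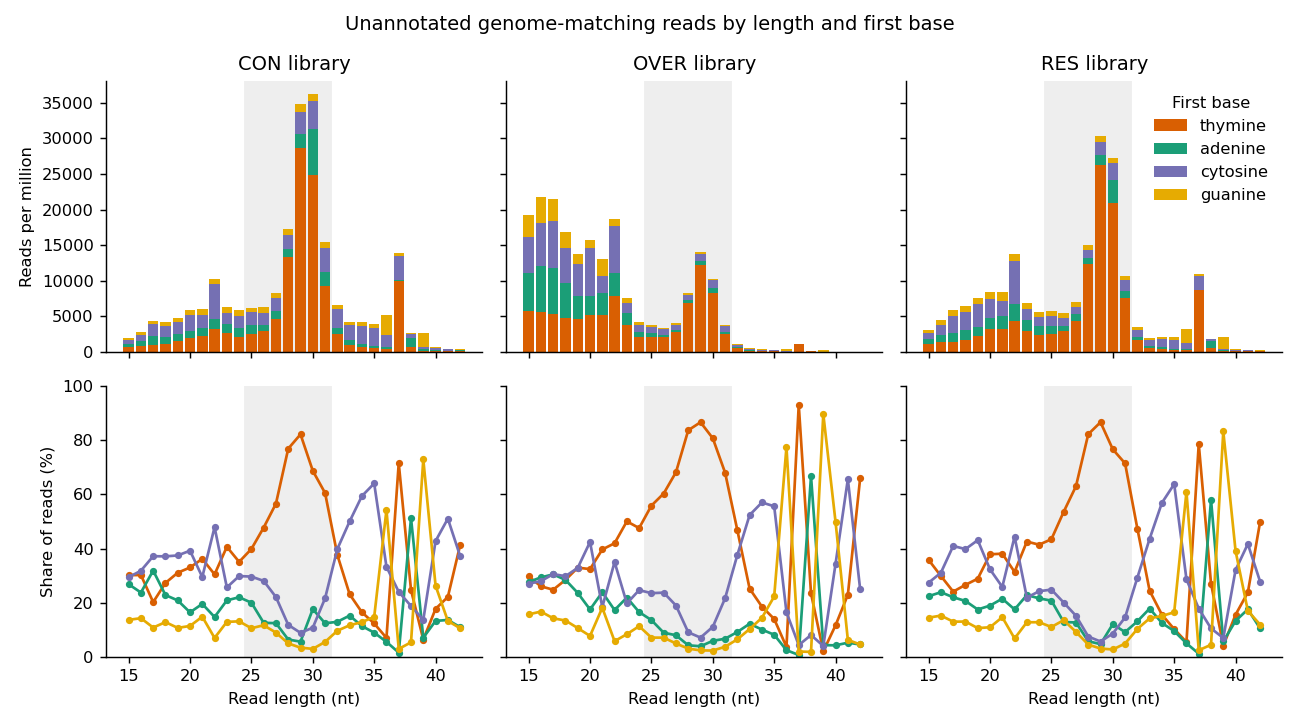
Unannotated genome-matching reads by length (x axis, nt) and first base (colours) in each library, in RPM (upper panels) and as the share of reads of that length (lower panels), with 25 to 31 nt shaded. Within the shaded range T-starting reads are highest at 29 nt, lower in OVER (12164 RPM) than in CON (28645 RPM) and RES (26307 RPM), and outside it they have further peaks at 37 nt (9889 RPM in CON, 8619 RPM in RES) and, in OVER, at 22 nt (7843 RPM).

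The lengths of the members formed a narrow peak. The mode was 29 nt in all 3 libraries, and 28 to 30 nt held 77.5% of the reads in CON, 77.4% in RES and 74.4% in OVER. OVER held a larger share of the shortest members: 25 and 26 nt made up 11.4% of its reads, against 6.32% in CON and 7.04% in RES. Reads that began with A or C had their mode at 30 nt in each library, and those that began with G at 29 nt. At the edges of the chosen window, T-starting reads in CON stood at 2053 RPM at 24 nt and 2474 RPM at 25 nt, and at 9300 RPM at 31 nt and 2483 RPM at 32 nt. The window thus takes in the peak and cuts through a low shoulder on its short side.

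Past the first base, the composition was uneven at both ends. Among bases 2 to 25 from the 5′ end, adenine at base 5 was the most enriched. Of the reads, 42.2% in CON, 44.5% in RES and 45.3% in OVER had it, against a mean over bases 2 to 25 of 25.9 to 26.8%. Guanine was lowest at that same position, with 13.6%, 12.8% and 13.1% of reads. The enrichment of adenine was smaller, but present, when each distinct sequence counted once (adenine at base 5 in 33.6%, 35.3% and 36.8% of sequences in CON, RES and OVER). Guanine at the base before the last, described below, was in 37.5%, 36.4% and 36.7% of distinct sequences in the same order. Adenine at base 10, the mark of target-cut piRNAs, was at 25.9% in CON, 27.2% in RES and 25.6% in OVER, close to the mean over positions. In unannotated reads that began with A, C or G it was at 35.8%, 34.9% and 31.2%. The most read sequence held 11.9% of those reads in CON and 8.07% in RES, but only 1.92% in OVER. Counting each distinct sequence once turned the order: adenine at base 10 was then in 25.6%, 27.3% and 26.9% of T-starting sequences in CON, RES and OVER, and in 21.3%, 23.4% and 23.9% of the others.

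**Figure D2:**
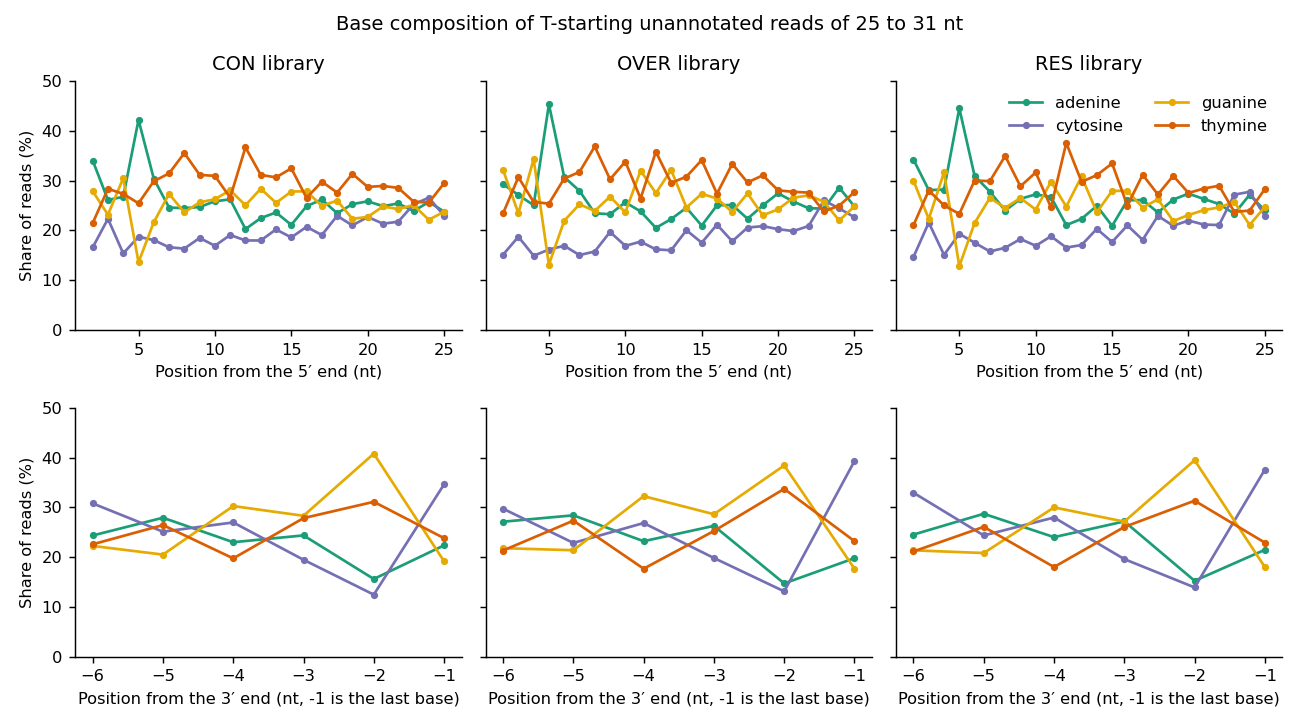
Share of reads (y axis, %) with each base (colours) by position from the 5′ end (upper panels, nt) and from the 3′ end (lower panels, nt) for the T-starting unannotated reads of 25 to 31 nt in each library. Adenine stands at 42.2 to 45.3% at position 5 in the 3 libraries, and guanine stands at 38.4 to 40.8% at the base before the last.

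At the 3′ end, the last base was most often cytosine, in 34.6% of CON, 37.6% of RES and 39.3% of OVER reads. The base before it was most often guanine, in 40.8%, 39.5% and 38.4%, and seldom cytosine, in 12.5%, 13.9% and 13.1%. The base that follows a member's 3′ end could be read only from other reads of the same library that run past it. In longer reads with the same start it was T for 38.4 to 38.9% of families in the 3 libraries. In reads with a later start, whose own 5′ end is another, it was T for 27.0%, 26.7% and 24.3%, and adenine was then the commonest, for 31.4%, 32.6% and 32.7%. Both readings need at least 5 reads a family, and bases added to a 3′ end cannot be told apart from genomic ones in the first of them.

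Reads were spread over many RNAs, with no single one dominant. The most read sequence held 1.28% of the members' reads in CON, 1.26% in RES and 1.37% in OVER, and the 100 most read held 20.8%, 25.6% and 23.0%. At the other end, sequences seen once made up 61.2% of the distinct sequences in CON, 56.6% in RES and 62.3% in OVER, but only 11.1%, 7.95% and 13.7% of the reads. Thinned to the 304650 reads of OVER, CON would hold 78912 distinct sequences and RES 67209, beside 67160 in OVER, so CON was the most varied of the 3 libraries at equal depth. In CON 1542 sequences were enough for 50% of the reads, in RES 918 and in OVER 1157.

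Sequences found in all 3 libraries were few but held most of the reads. Of 281038 sequences only 23829 (8.48%) were read in all 3 libraries, but these carried 74.4% of the members' reads in CON, 79.1% in RES and 81.0% in OVER. By 5′ family, 17628 of 177190 were found in all 3, with 83.4%, 87.0% and 88.5% of the reads. Families of unannotated reads that began with another base were shared less: those in all 3 libraries held 44.7% of such reads in CON, 49.1% in RES and 47.7% in OVER. Of the 100 largest T-starting families of each library, CON shared 87 with RES and 71 with OVER, and OVER shared 74 with RES. As a description across families with at least 100 reads in a pair, the rank correlation of read counts was 0.81 for RES and CON (2181 families), 0.68 for OVER and RES (1569) and 0.63 for OVER and CON (1476).

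Members were grouped by their 5′ end, so what varies within a family is its 3′ end. Among families with at least 100 reads (1132 in CON, 1256 in RES, 409 in OVER), the median family had 5 lengths, with 67.7% of its reads at its commonest end in CON, 68.0% in RES and 67.9% in OVER. The commonest length was 28 to 30 nt for 86.8%, 85.2% and 85.6% of these families. P2 was the sharpest of the 10 leading families, with 99.3% of its reads at 29 nt in each library. P1 was the least sharp, with 40.5% at 28 nt in CON, 35.2% at 28 nt in RES and 37.2% at 29 nt in OVER. The commonest length of P7 was 28 nt in CON (42.05% of its reads) but 26 nt in RES (44.1%) and OVER (55.3%), and 26 nt is the end it shares with P5. Between OVER and CON, 368 of 402 families large in both kept their commonest length, 26 were shorter in OVER and 8 longer. Between RES and CON 967 of 1026 kept it, with 32 shorter in RES and 27 longer.

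Many families overlapped a neighbour that began a few bases away, as P4 and P9 do. This held for 415 of the 1132 families in CON (36.7%), 493 in RES (39.3%) and 110 in OVER (26.9%). The neighbour, too, needed at least 100 reads, and OVER had only 409 such families, so these shares are not at equal depth. In CON the commonest steps were 1 nt (75 pairs), 2 nt (74 pairs) and 3 nt (58 pairs), after which 4 nt had 20 pairs. Part of the reads that began with another base lay on the same stretches, sharing 18 bases in a row with a member. This held for 72.3% of A-starting, 45.3% of C-starting and 52.0% of G-starting reads in CON, for 69.8%, 53.6% and 55.7% in RES and for 40.6%, 41.9% and 47.8% in OVER. By distinct sequence the shares were lower, from 18.02% (C, OVER) to 36.4% (G, RES). These overlaps were not set to equal depth either, and OVER had the fewest members. A stretch of 20 bases complementary to an unannotated genome-matching read of the same library was found for 8.08% of the members' reads in CON, 10.8% in RES and 8.70% in OVER, and for 4.05%, 3.98% and 4.23% of reads that began with another base.

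The members were chosen as unannotated, so a low likeness to annotated RNA is largely set by that choice. Likeness was sought only among annotated sequences read in these 3 libraries. Members with 16 or more bases in a row in common with an annotated sequence held 11.2% of the reads in CON, 10.4% in RES and 10.5% in OVER, most of it shared with long non-coding RNAs (4.93%, 4.29% and 3.86%) or with the antisense strand of annotated genes (4.17%, 4.27% and 3.86%). Stretches of nuclear rRNA were in 0.610% of the reads in CON and 1.45% in OVER. Unannotated reads that began with another base resembled annotated RNA more often, in 34.3% of CON and 27.3% of OVER reads. As to cell types, the annotation names none of the germ cell miRNAs miR-34b, miR-34c and miR-449a nor the blood miRNAs looked for, so these were not measured. Of 4 epithelial miRNAs 3 were named: miR-200a, miR-200b and miR-200c stood at 132 to 171 RPM in CON, 326 to 423 RPM in OVER and 32.6 to 66.8 RPM in RES, highest where the piRNA-like reads were lowest, and their part in that difference was not tested.

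In OVER against CON, the leading families were all lower in RPM, by very different amounts. They were chosen as the highest in CON, which favours CON in this comparison, and the members together were 2.35-fold lower in OVER. As a share of the members' reads, P4, P5, P6, P7, P9 and P10 were higher in OVER (P10 at 0.979%, against 0.569% in CON). P1, P2, P3 and P8 were lower. P3 went from 861 RPM in CON to 52.8 RPM in OVER, 16.3-fold lower (log2 ratio -4.03, interval -4.17 to -3.89), with 571 RPM in RES. P1, the most abundant in CON with 1643 RPM, was at 220 RPM in OVER, 7.47-fold lower, and at 1659 RPM in RES. At the other end, P10 was at 491 RPM in CON and 360 RPM in OVER, 1.36-fold lower. P4 and its overlapping neighbour P9 had like ratios, with 752 and 550 RPM in CON and 524 and 322 RPM in OVER. P5 and P7 did too, with 648 and 603 RPM in CON and 439 and 400 RPM in OVER. The remaining families lay between: P2 was at 1117 and 434 RPM in CON and OVER, P6 at 641 and 279 RPM and P8 at 579 and 147 RPM.

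**Figure D3:**
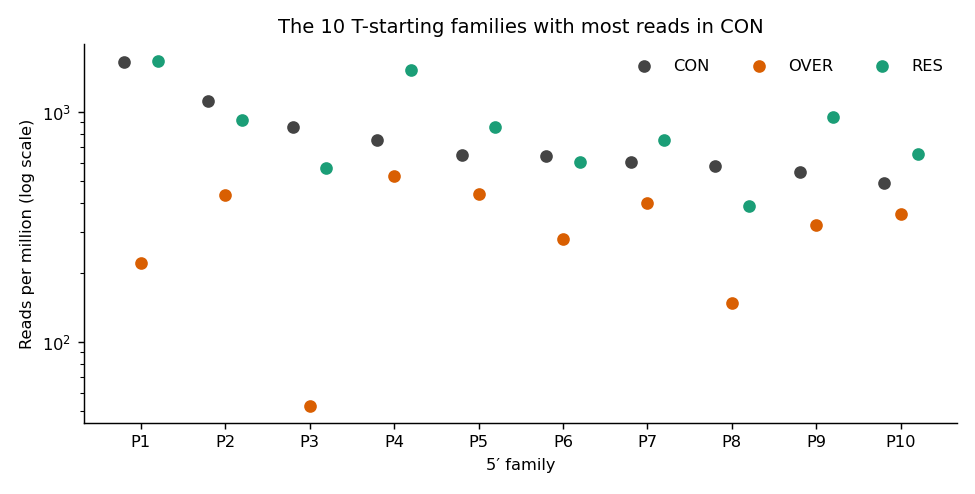
Levels in RPM (y axis, log scale) of the 10 T-starting families with most reads in CON, 1 point for each library. P3 is the farthest below CON in OVER (861 and 52.8 RPM), and P4 is the farthest above CON in RES (752 and 1513 RPM).

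The whole set followed. Of 123906 T-starting families read in CON or OVER, 1476 had at least 100 reads in the pair and were compared. Of these, 866 (58.7%) were lower in OVER by 2-fold or more and 2 were higher by as much, with a median log2 ratio of -1.21. Unannotated genome-matching families of the same lengths that began with another base were lower more often. Of 161 that passed the filter, 116 (72.0%) were at least 2-fold lower and 0 higher, with a median of -1.55. Over all 7249 families of the 2 libraries that passed the same filter, whatever their annotation, 36% were at least 2-fold lower and 20.8% higher, with a median of -0.48. Scaled instead to the members' own total, which takes the common shift out, 269 of the 1476 families were at least 2-fold lower and 177 higher. With that scaling 12.5% of all families were lower and 43.8% higher.

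Within 25 to 31 nt, the longer a T-starting RNA, the lower it was in OVER. At the level of reads, the log2 ratio of OVER to CON went from -0.22 at 25 nt (interval -0.25 to -0.19) through -0.54 at 26 nt, -0.78 at 27 nt, -0.95 at 28 nt, -1.24 at 29 nt and -1.59 at 30 nt to -1.87 at 31 nt (-1.89 to -1.85). Families showed the same order when grouped by the length of their most read sequence. The median log2 ratio was -0.52 for the 42 families of 25 or 26 nt, -0.84 for 45 of 27 nt, -0.93 for 240 of 28 nt, -1.13 for 568 of 29 nt, -1.43 for 466 of 30 nt and -1.69 for 115 of 31 nt. In the shortest group 13 of 42 families were at least 2-fold lower, and in the longest 93 of 115 (80.9%). The groups overlapped widely, with quartiles of -1.95 and -0.57 at 29 nt and of -2.44 and -1.11 at 31 nt. GC content gave no such order: the median was -1.19 for families under 40% GC, -1.18 from 40 to 50% and -1.29 from 50% upward. OVER against RES, which shares the OVER library, ran from -0.59 at 25 or 26 nt to -1.44 at 31 nt. RES against CON ran only from -0.09 to -0.25. In unannotated reads that began with another base the read-level ratio of OVER to CON went from -1.15 at 25 nt to -2.52 at 30 nt and -2.35 at 31 nt. Their families did not show that order: the median was -1.94 for 30 families of 25 or 26 nt, -1.69 for 12 of 27 nt, -1.29 for 17 of 28 nt, -1.37 for 40 of 29 nt, -1.39 for 43 of 30 nt and -2.80 for 19 of 31 nt. The OVER library as a whole held a smaller share of reads of 25 to 31 nt, as given above. Its shift toward short reads also ran beyond these lengths. Unannotated genome-matching reads of any first base stood at 19204 RPM in OVER and 1955 RPM in CON at 15 nt. At 32 nt they stood at 1062 RPM in OVER and 6600 RPM in CON. At the level of reads, the order by length is thus not particular to the piRNA-like reads, while families that began with another base did not show it. The part of the library's shift in these ratios was not tested.

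**Figure D4:**
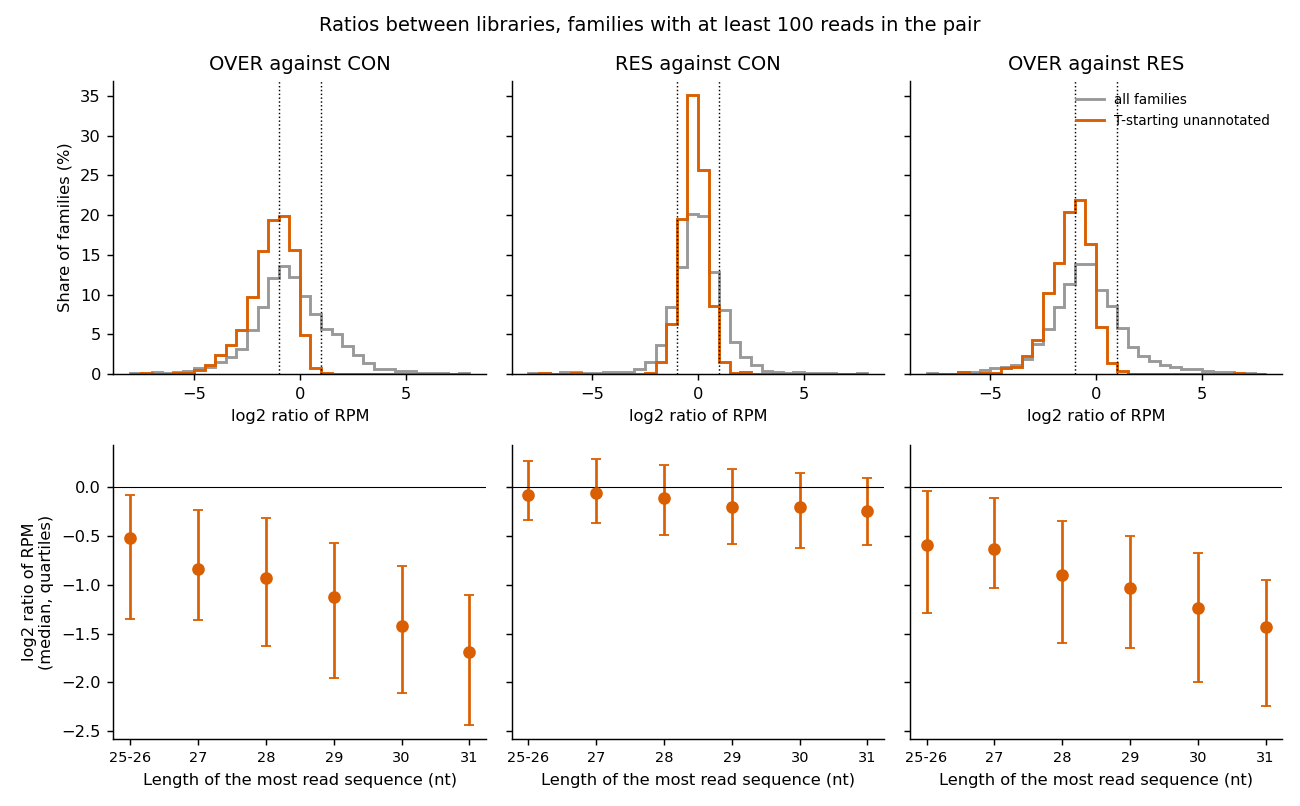
Upper panels give the share of families (y axis, %) by log2 ratio of RPM (x axis) for T-starting unannotated families and for all families, with dotted lines at 2-fold. Lower panels give the median log2 ratio of the T-starting families, with quartiles as bars, by the length of their most read sequence (x axis, nt): it falls from -0.52 to -1.69 in OVER against CON and from -0.09 to -0.25 in RES against CON.

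RES was close to CON for most families. P4 was the exception among the 10, with 752 RPM in CON and 1513 RPM in RES, 2.01-fold higher (log2 ratio 1.01, interval 0.97 to 1.05), and its neighbour P9 was 1.73-fold higher. P5, P7 and P10 were 1.32-fold, 1.25-fold and 1.34-fold higher in RES, and P3 and P8 were 1.51-fold and 1.49-fold lower. P1 was nearly level, with 1643 RPM in CON and 1659 RPM in RES, and P2 (1117 and 919 RPM) and P6 (641 and 604 RPM) were slightly lower. Of 2181 families compared, 51 were at least 2-fold higher in RES and 188 at least 2-fold lower, with a median log2 ratio of -0.18. Over all 8876 families of the pair 17.1% were higher and 16.5% lower. Scaled to the members' own total, the counts were 78 higher and 114 lower, where 21% and 13.1% of all families were. In RPM, 21 of 281 unannotated families of the same lengths that began with another base were higher and 47 lower.

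For OVER against RES, 841 of 1569 families were lower in OVER by 2-fold or more and 11 higher, where 35.3% and 17.8% of all 7956 families were. Scaled to the members' own total these became 273 and 149, beside 14.6% and 38.8% of all families. In RPM, 124 of 176 unannotated families of the same lengths that began with another base (70.5%) were lower and 0 higher. The T-starting share that was lower was 53.6%. Since each comparison shares a library with the other two, their counts are not independent of each other.

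The families with the most extreme ratios, 13 in all, come next, and the sequences of 6 are shown because each had a version that differed by 1 base. They were taken as the 3 largest and 3 smallest ratios of each pair, at a mean of at least 10 RPM. Versions were searched after these values were seen, among unannotated T-starting reads of 25 to 31 nt with or without a genome match, by their first 25 bases. A version had to have at least 20 reads and at least 10% of the member's in the same library. For named families any of the 3 libraries could meet this, and for the later counts over all families only those of the pair. Where the member was absent, the 10% rule asked nothing. Positions count from 1 at the 5′ end, the member's base comes first, and the capital marks the base that differs.
Q8 member: ttctatctgtgagttacTgcgctgc
Q8 version T18C: ttctatctgtgagttacCgcgctgc
Q9 member: tccgatccatttatgAgatgtttgc
Q9 version A16G: tccgatccatttatgGgatgtttgc
Q10 member: tagaaagacaacttagAacacggcc
Q10 version A17G: tagaaagacaacttagGacacggcc
Q11 member: tgagtctgatTcgccaactgaaagt
Q11 version T11G: tgagtctgatGcgccaactgaaagt
Q12 member: tacacataCgatattcagggcttga
Q12 version C9T: tacacataTgatattcagggcttga
Q1 member: tctgagaacacgGaagactgaatcc
Q1 version G13T: tctgagaacacgTaagactgaatcc
The versions, too, were mostly flagged as matching the genome: 2819 of the 2829 CON reads of the Q10 version were, and, at the low end, 37 of the 42 RES reads and 5 of the 6 OVER reads of the Q12 version. Family counts below are of genome-matching reads, while sums and shares of member and version count all reads with these 25 bases, so the member's number can be slightly larger in them. Whether that match allowed mismatches is not stated in the labels or the headers.

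The Q10 family was read 358 times in CON and 205 times in OVER but 0 times in RES. With that 0 set to 3 reads (0.228 RPM), RES was 157-fold lower than CON (log2 interval below -6.99). The A17G version of Q10 had 4383 reads in RES, 2829 in CON and 559 in OVER. With the member at 383 reads in CON and 213 in OVER by its 25 bases, the 2 together came to 322 RPM in CON, 333 RPM in RES and 93.15 RPM in OVER, a log2 ratio of 0.05 for RES against CON. The member's share of the pair was 11.9% in CON (interval 10.8 to 13.1%), 27.6% in OVER (24.5 to 30.9%) and 0% in RES, with an upper limit of 0.084%.

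Q8 and Q9 showed the reverse pattern, with the member high in RES. The Q8 family had 429 reads in RES and 0 in both CON and OVER. With 0 set to 3 reads it was 108-fold higher in RES than in CON (log2 interval from 6.46 upward). The T18C version of Q8 had 4 reads in RES, 190 in CON and 50 in OVER. Summed, Q8 stood at 19.03 RPM in CON and 32.98 RPM in RES, a log2 ratio of 0.79. For Q9 the family had 670 reads in RES, 140 in CON and 0 in OVER, or 700, 157 and 0 by its 25 bases, and the member's share of the pair was 19.8% in CON (17.1 to 22.7%), 0% in OVER (up to 2.24%) and 75.4% in RES (72.5 to 78.2%). Summed, Q9 was at 79.4 RPM in CON and 70.5 RPM in RES, a log2 ratio of -0.17, against 1.86 for the family alone.

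Q1, Q11 and Q12 were each absent as the member from RES but present there as the version. Q1 had 86, 193 and 0 reads in CON, OVER and RES, and its G13T version had 150, 40 and 238. The summed level of Q1 was 23.7 RPM in CON, 28.4 RPM in OVER and 18.1 RPM in RES. Q11 had 314, 30 and 0 reads in CON, OVER and RES, and its T11G version had 74, 54 and 210. Its sum was at 39.1 RPM in CON and 15.96 RPM in RES, a log2 ratio of -1.29. Q12 had 291, 79 and 0 reads, and its C9T version had 17, 6 and 42. Its sum stayed apart between RES and CON, with a log2 ratio of -3.27.

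**Figure D5:**
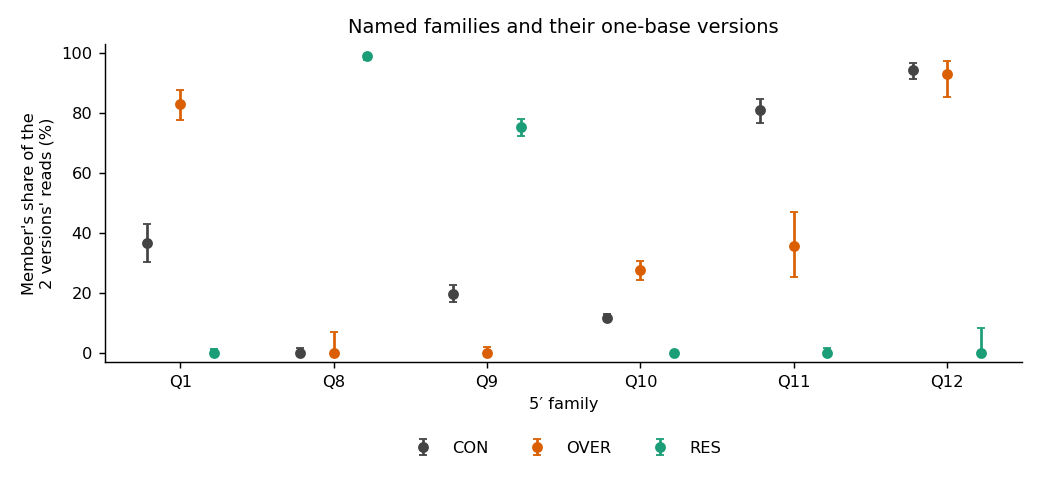
Share of reads (y axis, %) that carried the member's base among the reads of the member and its 1-base version, for the 6 named families with such a version (x axis), 1 point for each library with its exact 95% interval. The shares differ between libraries within each family, for Q10 from 0% in RES to 27.6% in OVER and for Q8 from 0% in CON to 99.1% in RES.

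Across all families, such versions were common among the extreme ratios of RES against CON. After scaling to the members' own total, 30 of 2181 families were at least 4-fold apart there, where 9.85% of all families were. Of the 30, 17 (56.7%) had a 1-base version, against 73 of the 1989 families within 2-fold (3.67%). When member and version were summed, 15 of the 17 came under 4-fold and 12 under 2-fold. Of 11 families with 0 reads in 1 of these 2 libraries, 9 had a version. OVER against CON differed from this: 107 of 1476 families were at least 4-fold apart (29.6% of all families), and 7 of the 107 (6.54%) had a version, beside 4.56% of those within 2-fold, with 4 of the 7 under 4-fold when summed. In OVER against RES 77 families were at least 4-fold apart (24.3% of all families), 11 of them (14.3%) with a version, beside 3.40% of those within 2-fold, and 10 of the 11 came under 4-fold when summed. The filter on reads touches these counts, since a family at 0 in 1 library passed through the other. The rule for a version does so too, since 10% of a member at or near 0 asks little. Families with extreme ratios therefore meet that rule more easily than balanced ones. Version reads added in the library where the member is low also lessen the ratio by construction. The shares above thus cannot show that versions go with extreme ratios beyond this link.

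The other extreme families, Q2 to Q7 and Q13, had no such version. Q4 and Q5 are overlapping families 2 nt apart and Q7 stands alone.
Q4: TatgAgacgtggactaaatactggctgaa
Q5: TgagAcgtggactaaatactggctgaatga
Q7: Taatctgttagagactgttattttgtcacc
Q4 had 210, 1 and 8 reads in CON, OVER and RES, a log2 ratio of OVER to CON of -7.45 (interval -12.8 to -4.95). Q5 had 348, 2 and 10 reads, a log2 ratio of -7.17 (-10.2 to -5.31). Both were thus near absence outside CON. Q7 had 744 reads in RES (56.5 RPM), 7 in OVER and 0 in CON. With 0 set to 3 reads it was 188-fold higher in RES than in CON (log2 interval from 7.25 upward). Q6 was at 22.5 RPM in CON, 0.483 RPM in OVER and 8.28 RPM in RES.

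In RPM, families that were higher in OVER than in CON were few and their ratios small. Against RES, the largest ratios among the named families were those of Q10 (108.5-fold) and Q1 (102-fold). Both had 0 reads in RES, set to 3. Q3 stood at 28.5 RPM in CON, 49.0 RPM in OVER and 22.9 RPM in RES, 1.72-fold higher in OVER than in CON. Q13 stood at 33.95, 47.5 and 17.6 RPM in the same order, 1.40-fold higher. Q2, whose sequence has 16 or more bases in common with an RNA annotated as antisense, stood at 8.61, 15.3 and 9.80 RPM, 1.78-fold higher in OVER than in CON. By its member base Q1 exceeded its CON level 2.70-fold in OVER. Q7 had 7 reads in OVER and 0 in CON. With that 0 set to 3 reads it was 2.81-fold higher in OVER (log2 interval from 0.80 upward). Its reads in this pair were under 100, so it was not among the families compared there.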

How the data were processed

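Small RNA of F1 ram sperm was compared between 3 groups (CON, OVER, RES). Per the labels' protocols, libraries were made with the NEBNext small RNA kit and sequenced on an Illumina NovaSeq. The tables the authors deposited list distinct sequences with length, read count, genome match and annotation, per the file headers, and the deposited counts are raw whole numbers. As a tool, edgeR is named in the submitters' processing notes. What aligner, annotation tool and build they used is not given in the sources used here.

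Within each group the 3 tables were compared row by row and held the same sequences and counts, so 1 table a group was used and the values of single libraries took the place of the planned tests. Total counts were 9983895 (CON), 8287937 (OVER) and 13160116 (RES). RPM is reads per 1000000 reads of the whole library. Families join members by their first 18 bases, and families with at least 100 reads in a pair were compared, a 2-fold ratio being counted. A count of 0 was set to 3 reads. Shares have Clopper-Pearson (exact) 95% intervals, and ratios have intervals derived from the binomial share of 1 count in both. PCR copies are not told apart.

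Named families are the 10 highest in CON and, for each pair, the 3 largest and 3 smallest ratios at a mean of at least 10 RPM. The members and lists were chosen with earlier results of these data known. Alternatives were edgeR 4.0.16 TMM factors, DESeq2 1.42.0 size factors, other filters and length windows, exact sequences and the removal of members that resemble annotated RNA. Scaling to the member reads, the addition of 1-base versions and the grouping by length and GC content were chosen after the data were seen. The ratio script was tested on simulated data. Python 3.11.15, pandas 2.3.3 and scipy 1.17.1 were used. A marker miRNA was measured only where the annotation names it.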

Additional observations from a re-analysis of the deposited data

How the results depend on the processing

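With 1 library a group, nothing here is checked against replicates, families of few reads have wide counting intervals, and no member was placed in the genome. No paired analysis was possible because the 3 tables of a group are the same, and for the same reason no replicate could be left out. The level in CON, OVER and RES was 74494, 32095 and 66895 RPM for members of 26 to 30 nt, 76613, 32885 and 68960 RPM without members that resemble annotated RNA, and 81041, 33727 and 70750 RPM without the 10 most read sequences of each library, always lowest in OVER and highest in CON. The T-start share was 48.2%, 58.6% and 52.9% over distinct sequences, 72.4%, 80.4% and 78.6% at 26 to 30 nt, and 75.3%, 80.9% and 80.8% without sequences that resemble annotated RNA, always lowest in CON.

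The counts of families at least 2-fold apart depend on the scaling. For OVER against CON, 2 were higher and 866 lower in RPM, 13 and 600 with edgeR TMM factors, 16 and 567 with DESeq2 size factors, and 177 and 269 scaled to the member reads, an alternative chosen after seeing the data. For OVER against RES the counts were 11 and 841, 28 and 538, 34 and 520, and 149 and 273 in the same order. For RES against CON they were 51 and 188, 51 and 184, 54 and 176, and 78 and 114. The scaling moves the median log2 ratio of the T-starting families compared, for OVER against CON from -1.21 to -0.74 with TMM, -0.68 with DESeq2 and 0.02 with the member reads. Without a filter on reads, 57922 families were higher and 27635 lower for OVER against CON, 60830 and 7509 for OVER against RES, and 55207 and 49077 for RES against CON. These unfiltered counts do not give a direction, since a count of 0 was set to 3 reads. A family read once in CON and never in OVER, for example, then counts as higher in OVER. By exact sequence, 6 were higher and 806 lower for OVER against CON, 17 and 840 for OVER against RES, and 87 and 182 for RES against CON. With 1-base versions added, also chosen after seeing the data, 1 was higher and 863 lower for OVER against CON, 9 and 836 for OVER against RES, and 39 and 184 for RES against CON. Lower families outnumbered higher ones in each comparison under all of these settings other than the one without a filter on reads. Of the 60 alternative values computed, 41 moved and 19 did not. For levels and shares, moved means outside the narrow counting interval, and every alternative there moved. For counts of families it means a change past a set fold, so the tally does not measure how stable the results are.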
